A study of Mus musculus with 16 samples.

Results

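RNA that came down with tagged ribosomes (IP) was compared with the RNA of the whole homogenate (input) in cochleae damaged by loss of LGR5-positive cells. The 8 libraries were the 4 DTR IP and the 4 DTR input libraries of the 16 in the series, taken by their labels, and each IP library was paired with the input of the same pool number. All 47729 genes with a value were read, and 16994 of them had enough signal to be tested. The DTR mice carried Lgr5 DTR-EGFP/+, GLAST CreERT/+ and Rpl22 HA/+, and the control mice of the remaining 8 libraries carried GLAST CreERT/+ and Rpl22 HA/+ but no DTR. All cochleae were collected at postnatal day (P) 4, and the cochlear lateral wall, Reissner's membrane and spiral ganglia had been dissected away. Each pool held 8 cochleae from 4 mice, and 5% of its homogenate was kept as input while 95% was used for the IP with an anti-HA antibody. By the study's methods, mice of both genotypes received tamoxifen and diphtheria toxin (DT), whereas the sample labels list DTR treatment for the DTR pools and no treatment for the controls.

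The RiboTag allele replaces a ribosomal protein, RPL22, by a version that ends in a hemagglutinin (HA) tag once Cre has acted. Here Cre is driven by GLAST (Slc1a3), a glutamate transporter of glia that the neonatal cochlea makes in the greater epithelial ridge (GER) and in the inner phalangeal and border cells beside the inner hair cells. DTR places the human DT receptor under Lgr5, a Wnt co-receptor, so that DT kills LGR5-positive cells and not mouse cells without the receptor. At birth these are some of the Deiters' and pillar cells, but also inner phalangeal cells and the lateral GER, so the toxin also reaches cells in which GLAST-CreERT acts. The tag marks every cell in which GLAST-CreERT recombined, with its daughters, and is not limited to cells of the GER. In bulk RNA, fewer cells of a type and less RNA per cell cannot be told apart.

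The 4 DTR IP libraries held 28089836 to 31119045 counted reads and the 4 DTR inputs 32764633 to 39158473. Values are CPM, the reads of a gene relative to all counted reads of its library, and 3 reads were worth 0.07149 to 0.1068 CPM over the 16 libraries. LFC is the log2 difference of IP against input within pools, on quantile-normalized CPM plus 0.5, with its standard error (SE). The adjusted p is from limma with Benjamini-Hochberg adjustment over the 16994 genes, and the values given per library are CPM as deposited. The median LFC over all tested genes was -0.03.

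The gene whose promoter drives Cre and the tagged ribosomal protein were examined first. Slc1a3 gave 239, 209, 195 and 218 CPM in the IP libraries of pools 1 to 4 and 295, 274, 247 and 266 CPM in their inputs. The IP was the lower library in each pool and the groups did not overlap, with an LFC of -0.27 (SE 0.08, adjusted p = 0.0159), which missed the fold of 1.5 required for a call and lost significance without pool 2. The IP thus held no larger share of Slc1a3 RNA than the whole tissue. Rpl22 measured 49.2 ± 5.19 CPM in IP and 48.9 ± 6.47 CPM in input (SD, n = 4 each), with an LFC of -0.01 (SE 0.12, adjusted p = 0.956). The tag itself cannot be read from this value, since counts per gene do not separate the tagged from the untagged transcript. Lgr5, which the toxin targets, gave 8.13, 9.47, 8.61 and 11.3 CPM in IP against 17.9, 11.2, 15.1 and 19.6 CPM in input. The lowest input library lay just under the highest IP library, so the groups overlapped, although IP was lower in each of the 4 pools (LFC -0.73, SE 0.13, adjusted p = 3.84e-04).

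A gene was called enriched or depleted when its LFC was at least 2 in size, its adjusted p was below 0.05 and its DTR libraries averaged more than 22.4 normalized CPM, the median of tested genes. In addition, the lowest library of the higher fraction had to exceed the highest library of the other by more than 1.5 times, after values below 1.08 normalized CPM had been raised to that floor. By this rule 86 genes (0.506% of those tested) were enriched and 22 (0.129%) depleted in DTR IP. A wider call asked for no overlap between the 4 IP and the 4 input libraries, a fold of more than 1.5 and an adjusted p below 0.05, and found 1968 genes (11.6%) higher and 1755 (10.3%) lower. In what follows, "higher" and "lower" refer to this wider call, and the shares of 11.6% and 10.3% are the background for each gene group. The gap of more than 1.5 times between fractions fixes the direction of the 86 enriched and 22 depleted genes in 4 of 4 pools. Their agreement between pools is therefore part of the rule and not a further result. Protein-coding genes made up 83 of the 86, and the other 3 were long intergenic noncoding RNAs. On the fold and adjusted p alone the numbers were 128 and 51, and on the adjusted p alone 3830 genes (22.5%) were above and 4353 (25.6%) below input.

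**Figure D1:**
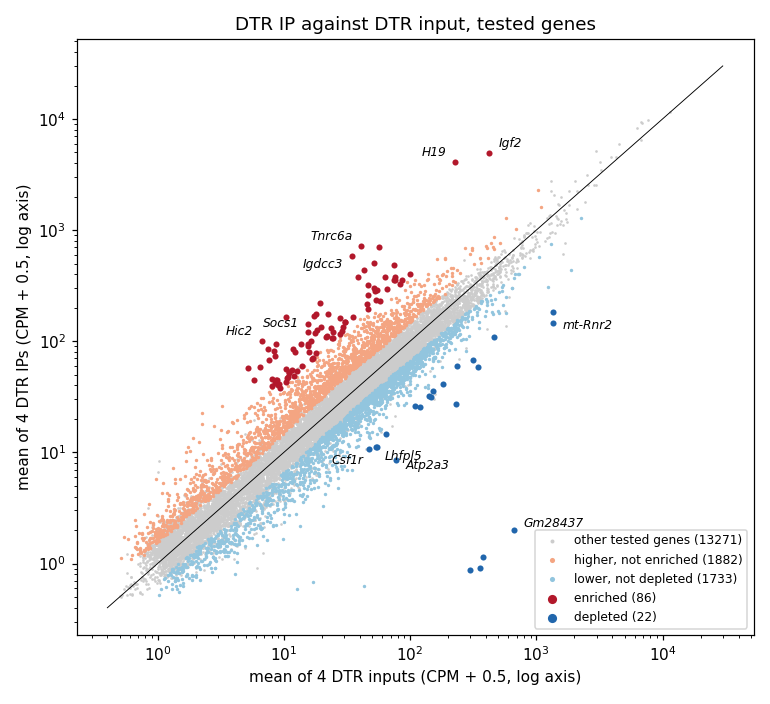
Mean CPM plus 0.5 of the 4 DTR inputs (x) and of the 4 DTR IP libraries (y) for each of the 16994 tested genes, both on log axes, with a line at equal values. Dark red points are the 86 enriched and dark blue points the 22 depleted genes, light red and light blue points the other higher and lower genes; Igf2 and H19 stand far above the line at high CPM, and the 4 lowest dark blue points are copies of mitochondrial genes.

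Genes for the machinery by which microRNAs silence messages were enriched, 3 of them among the 12 enriched genes with the largest LFC. Argonaute proteins carry a microRNA to a matching messenger RNA, and GW182 proteins, made from Tnrc6a, Tnrc6b and Tnrc6c, bind Argonaute and recruit the enzymes that shorten the poly(A) tail. Tnrc6a gave 613, 744, 991 and 543 CPM in the IP libraries and 42.4, 38.2, 37.5 and 44.9 CPM in the inputs. The lowest IP library was above 10 times the highest input, and the input libraries hardly differed from each other. Its mean was 723 ± 197 CPM in IP and 40.7 ± 3.54 CPM in input (SD, n = 4 each), an LFC of 4.21 (SE 0.15, adjusted p = 8.47e-11), the largest of all tested genes. Tnrc6b gave 595, 757, 917 and 528 CPM in IP and 54.7, 53.4, 52.9 and 65.1 CPM in input (LFC 3.73, SE 0.15, adjusted p = 1.83e-10). Tnrc6c gave 368, 419, 583 and 397 CPM in IP and 43.5, 40.9, 39.1 and 47.6 CPM in input (LFC 3.41, SE 0.13, adjusted p = 8.47e-11). All 3 genes were far apart between IP and input, and pool 3 was the highest IP library for each of them.

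Ago2, the Argonaute that can also cut its target, gave 367, 403, 469.7 and 288 CPM in IP and 43.9, 40.0, 34.8 and 34.0 CPM in input. No IP library came near an input, and the LFC was 3.36 (SE 0.12, adjusted p = 8.47e-11). Ago2 lies on chromosome 15 (chr15:73095844-73184935, minus strand) and shares its end with Chrac1 on the other strand, and the kit does not mark strand, so reads from the shared stretch cannot be assigned to either gene. Of the 14 tested genes of the list for microRNA silencing, 11 were higher, 1 was lower and 4 were enriched, with a median LFC of 1.83. The list was chosen with earlier results of these data known, so its share is a description and not independent evidence. The other Argonaute genes rose less, Ago1 by 1.69, Ago3 by 1.12 and Ago4 by 0.90 on the log2 scale. Dicer1, which cuts the precursor into its mature form, had an LFC of 1.84, and Tarbp2, which encodes a partner of Dicer, 1.82. Lin28b, which blocks the maturation of let-7, had an LFC of 2.37, and Trim71, a stem cell protein that is itself a let-7 target, 2.86. Xpo5, which exports the precursor from the nucleus, was the single lower member (LFC -1.45), while Drosha (-0.44) and Prkra (0.22) passed neither call. Drosha makes the precursor in the nucleus, and Prkra, like Tarbp2, encodes a partner of Dicer.

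A group of genes known from embryonic tissue, many of them described as let-7 targets, was higher almost as a whole. let-7 is a microRNA family that accumulates as tissues mature and represses growth genes of the embryo. Igdcc3, a cell surface protein of the immunoglobulin family, gave 561, 674, 601 and 526 CPM in IP and 29.3, 31.5, 34.3 and 42.2 CPM in input. Means were 590.3 ± 63.5 and 34.3 ± 5.66 CPM (SD, n = 4 each), and the LFC was 4.21 (SE 0.14, adjusted p = 8.47e-11). The 4 IP libraries lay close together and far above every input. Hic2, a transcriptional repressor, gave 82.4, 129.5, 115 and 74.8 CPM in IP and 6.82, 5.71, 5.39 and 6.91 CPM in input (LFC 3.94, SE 0.19, adjusted p = 1.38e-09). Igf2bp1, an RNA-binding protein of fetal tissues that stabilises Igf2 and other messages, gave 123, 144, 106 and 92.5 CPM in IP and 33.9, 29.4, 19.2 and 27.4 CPM in input. Its IP libraries were all above its inputs, by an LFC of 2.07 (SE 0.14, adjusted p = 3.39e-08).

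Of the 16 tested genes of the oncofetal and let-7 target list, 15 were higher, none was lower and 8 were enriched, with a median LFC of 2.56. This list too was chosen with earlier results of these data known, so the count is not independent evidence of a direction. Arid3a (LFC 3.50) and Arid3b (2.75), a pair of related DNA-binding proteins, were enriched, as were Fign (3.31), a microtubule-severing enzyme, and Nr6a1 (2.80), a nuclear receptor of germ cells and embryos. Hmga2, a chromatin protein of growing tissue and a well-studied let-7 target, was higher with an LFC of 3.00 but was not called enriched. The Igf2bp1 paralogs rose less, Igf2bp3 by 1.38 and Igf2bp2 by 1.03 on the log2 scale. E2f5, a cell cycle regulator, had an LFC of 1.38. Hmga1, the paralog of Hmga2, was the only member without a call (LFC -0.07).

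Igf2 and H19, neighbouring imprinted genes on chromosome 7, were both enriched. Igf2, a fetal growth factor, gave 4351, 4989, 6255 and 4064 CPM in IP and 430.3, 437, 459.5 and 372 CPM in input. The groups were far apart at 4915 ± 974 and 425 ± 37.4 CPM (SD, n = 4 each), with an LFC of 3.33 (SE 0.12, adjusted p = 8.47e-11). H19, a noncoding RNA that is transcribed next to Igf2 from the other parental copy, gave 3812, 3794, 5308 and 3488 CPM in IP and 263, 191, 247 and 207 CPM in input (LFC 3.89, SE 0.13, adjusted p = 8.47e-11). A noncoding RNA was thus among the genes most above input. Igfbp3, a secreted binding protein for IGF2 and a marker of the GER, gave 257, 237, 167 and 236 CPM in IP and 163, 142, 147 and 147 CPM in input. Its lowest IP library, pool 3, was only slightly above the highest input (LFC 0.62, SE 0.11, adjusted p = 2.83e-04). Of the 15 tested genes of the IGF pathway, 8 were higher and 2 lower, with a median LFC of 0.62. The receptors and the adaptor rose modestly, Igf1r with an LFC of 0.96, Insr 0.86, Igf2r 0.85 and Irs2 0.63. The binding proteins went both ways, Igfbp6 higher (0.82), and Igfbp7 (-1.55), which vessels make in quantity, and Igfbpl1 (-0.85) lower.

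**Figure D2:**
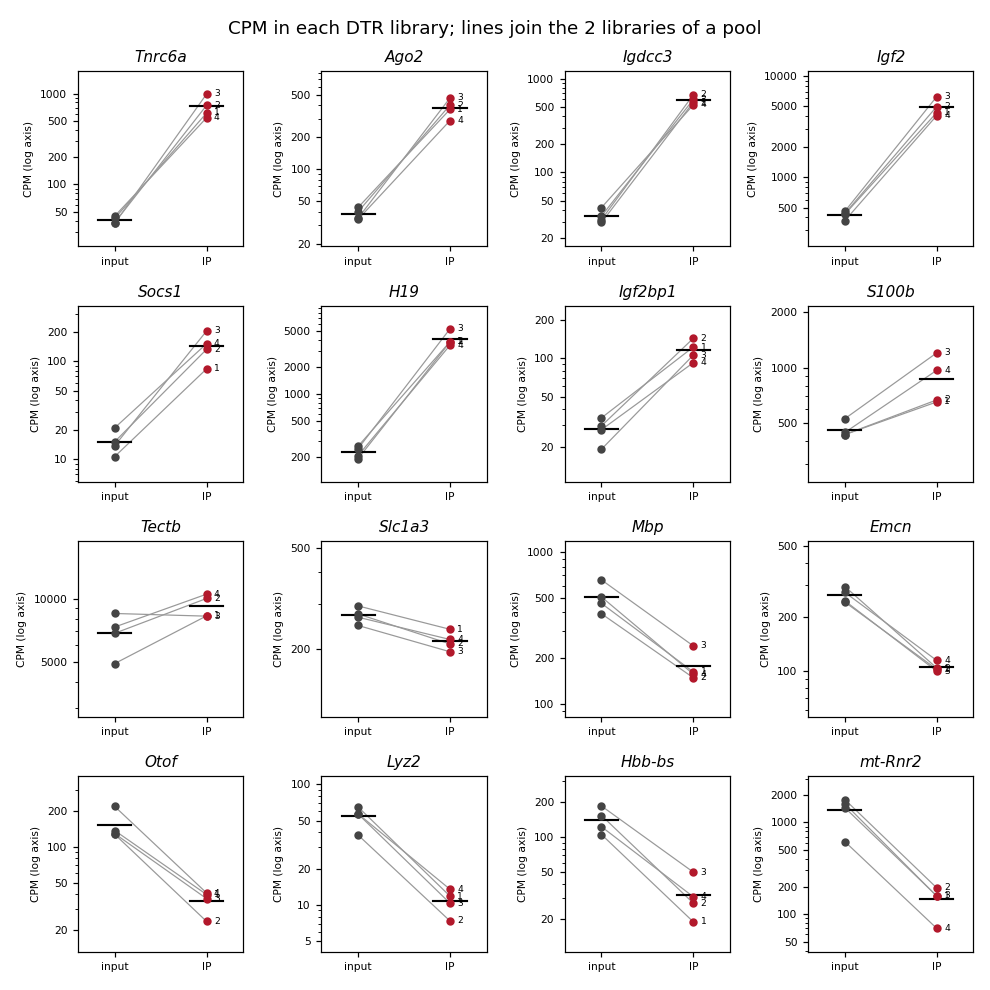
CPM in the 4 DTR inputs and 4 DTR IP libraries for 16 genes named in the text, 1 panel a gene (y, log axis). Numbers mark the pools, grey lines join the libraries of a pool and black bars are group means; Tnrc6a, Igdcc3, Igf2 and H19 show no overlap between IP and input, whereas Tectb overlaps and falls from input to IP in pool 3.

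Because several of these genes are described as let-7 targets, the 3′ untranslated regions (UTRs) of the tested genes were searched for the letters that pair with the let-7 seed. The seed is bases 2 to 8 of the mature microRNA, the stretch that decides most target pairing, and 11 mature mouse microRNAs in RefSeq share the let-7 seed. The mature sequence of the best known member is shown with its seed in capitals, from RefSeq for GRCm38.p6.
let-7a-5p: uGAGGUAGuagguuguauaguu
The matching letters in the UTR strand are CTACCTC. For 6 of the genes above, 1 match and its surroundings are shown from the GRCm38 sequence, 5′ to 3′ on the strand of the gene, with the match in capitals, to let a reader see what was counted.
Igdcc3: ctgttgtgactctcagcacCTACCTCagcc
Hic2: tgtggtgctggtgactattCTACCTCcctg
Arid3a: atgcaaggcaagtttctttCTACCTCaggt
Ago2: ttagacagatgcataaaagCTACCTCtgac
Igf2bp1: cagtgctgtgcgaagtaaaCTACCTCaagg
Socs1: caggacctgaattccactcCTACCTCtcca
These stretches lie in the annotated 3′ UTRs at chr9:65185703-65185732 (plus strand) for Igdcc3, chr16:17259365-17259394 (plus) for Hic2, chr10:79953891-79953920 (plus) for Arid3a, chr15:73101721-73101750 (minus) for Ago2, chr11:95961775-95961804 (minus) for Igf2bp1 and chr16:10783961-10783990 (minus) for Socs1. The whole UTR held 4 matches each in Hic2 and Igf2bp1, 3 in Ago2, 2 each in Igdcc3 and Arid3a and 1 in Socs1. Tnrc6a and Tnrc6b, which rose as much, held none. A match is a description of the letters, not a site shown to be used, and no microRNA was measured here.

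Among 14426 tested coding genes with an annotated 3′ UTR, 1717 (11.9%) held at least 1 match to the let-7 seed. The share was 37 of 83 (44.6%) among enriched genes and 2 of 14 (14.3%) among depleted genes. It was 405 of 1649 (24.6%) among the genes higher in IP and 149 of 1652 (9.02%) among those lower. Long UTRs hold any 7 letters more often, and the enriched genes had a median UTR of 2588 bases. Among the 3405 genes with a UTR at least that long, whose median UTR was 3629 bases, 23.7% held a let-7 match. The share among enriched genes was thus above that of long UTRs as well.

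The same count was made for 8 other seeds. Matches to the miR-30a seed (TGTTTAC) were found in 45.8% of enriched genes and 35.2% of genes with long UTRs, and those to miR-125b (CTCAGGG) in 34.9% and 32.7%. For miR-17 (GCACTTT) the shares were 33.7% and 32.5%, and for miR-26a (TACTTGA) 27.7% and 26.7%. For miR-34a (CACTGCC) they were 34.9% and 36.9%, for miR-200b (CAGTATT) 31.3% and 34.1%, for miR-9 (ACCAAAG) 19.3% and 32.8%, and for miR-183 (GTGCCAT) 12.05% and 25.5%. Beside long UTRs the surplus was widest for let-7, followed by miR-30a, and miR-183, a microRNA of hair cells, was at the low end with miR-9. These shares are descriptions of annotated letters and were not tested.

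The number of let-7 matches went with the LFC. The 12709 genes without a match had a median LFC of -0.07, and 9.79% of them were higher and 11.8% lower in IP. With 1 match (1488 genes) the median LFC was 0.10, with 21.5% higher and 9.21% lower. With 2 matches (197 genes) it was 0.27, with 32.5% and 5.08%. The 32 genes with at least 3 matches had a median LFC of 0.88, and 21 of them (65.6%) were higher against 2 (6.25%) lower. Each step in the count of matches thus held a larger share of higher genes. Among the 2598 genes with a long UTR and no match the median LFC was -0.08, with 13.9% higher and 14.3% lower. Medians in the control pools, whose samples are separate, were -0.04, 0.12, 0.23 and 0.98 for 0, 1, 2 and at least 3 matches.

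**Figure D3:**
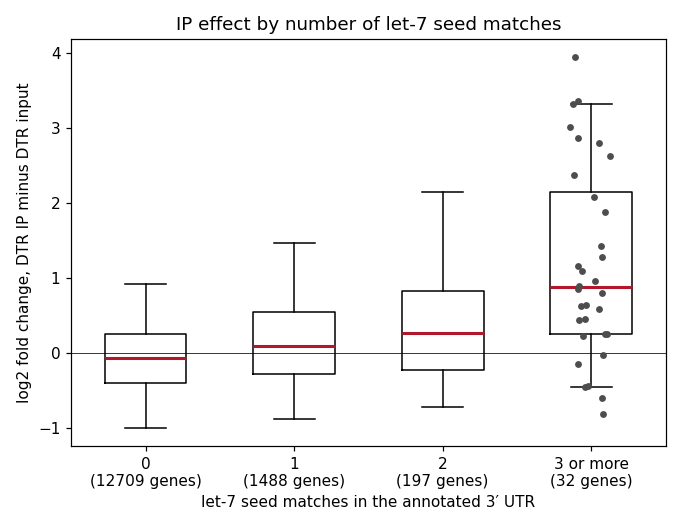
LFC of DTR IP against DTR input (y, log2 scale) for coding genes grouped by the number of let-7 seed matches in their 3′ UTR (x). Boxes are quartiles with the median, whiskers run from the 5th to the 95th percentile, and dots are the 32 genes with at least 3 matches; medians go from -0.07 without a match to 0.88 with 3 or more.

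Inhibitors of cytokine signals were also enriched. Socs1, which blocks JAK kinases after cytokine signals, gave 83.6, 132, 204 and 151 CPM in IP and 10.6, 15.1, 13.7 and 20.9 CPM in input (LFC 3.19, SE 0.13, adjusted p = 3.39e-10). Socs3, an inhibitor of the IL-6 family receptor, gave 81.2, 71.2, 71.5 and 59.2 CPM in IP and 18.6, 16.7, 14.1 and 17.3 CPM in input (LFC 2.05, SE 0.11, adjusted p = 4.10e-09). For both genes every IP library was above every input, though Socs1 varied more between pools. Of the 16 tested genes of cytokine signalling, the 7 higher ones were inhibitors of the SOCS family, namely Socs1, Socs2, Socs3, Socs4, Socs6, Socs7 and Cish. The 4 lower ones carry the signal, the receptor subunit Il6st (LFC -1.24), the kinases Jak1 (-0.62) and Jak2 (-0.98) and the transcription factor Stat3 (-0.80). The list's median LFC was 0.16, since inhibitors and signal carriers went apart.

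Transcription factors and chromatin proteins were also found among the higher genes. Of 21 Kruppel-like and Sp factors, 8 were higher and 1 was lower, with a median LFC of 0.39. Klf13 was enriched (LFC 2.28), Klf9, a target of glucocorticoid and thyroid hormone, was higher at 1.72 and Klf3, a repressor, at 1.44, while Sp2 was lower (-0.79). Of 58 chromatin regulators, 16 were higher and 6 lower (median LFC 0.36). Chd7, the remodeler mutated in CHARGE syndrome with its inner ear malformations, was enriched at 2.06, Kdm6b, a histone H3 lysine demethylase, was higher at 1.99 and Kmt2a, a methyltransferase, at 1.41. Kdm5c, another demethylase, was lower (-0.92). Of the 353 tested genes with a Zfp symbol, most of which encode zinc finger proteins that bind DNA, 74 (21.0%) were higher, 21 (5.95%) lower and 7 enriched, with a median LFC of 0.18. Of 18 Dlx, Hox-like and patterning factors, 4 were higher and 3 lower.

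Of 29 immediate early genes, which cells transcribe within minutes of a stimulus, 5 were higher and none lower, with a median LFC of 0.12. They were Dusp1 (LFC 1.97), a phosphatase that switches off MAP kinases, Zfp36 (1.56), which destroys short-lived messages, Btg2 (1.46), an anti-proliferative factor, Klf2 (0.97) and Ier2 (0.59). Egr1 went the other way in value. It gave 1128, 1099, 324 and 518 CPM in IP and 2489, 2273, 687 and 1352 CPM in input, so that IP held about the same share of input in each pool while the pools differed widely (LFC -1.06). The IP of pools 1 and 2 was above the input of pool 3, so Egr1 passed no call.

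Further genes of the 12 with the largest enrichment have less known roles in the ear. Zcchc3, a nucleic acid sensor's cofactor, gave 472, 490.0, 639 and 418 CPM in IP and 50.3, 53.0, 48.4 and 52.0 CPM in input (LFC 3.37). Lmbr1l (LFC 3.59), a membrane receptor for lipocalin, and Rhebl1 (3.52), a small GTPase related to Rheb, are near neighbours on chromosome 15. Mkrn3 (3.45) is an imprinted gene of the Makorin family tied to the timing of puberty. Gm26917 (4.05) is a long intergenic noncoding RNA on chromosome 17. None of these overlapped between IP and input, as the rule for enriched genes requires.

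RNA of mitochondria, whose own ribosomes do not contain RPL22, made up most of the largest losses. Mitochondrially encoded RNA was 0.156% to 0.426% of reads in DTR IP and 0.817% to 1.53% in DTR input. mt-Rnr2, the large mitochondrial ribosomal RNA, gave 157, 193, 158 and 69.9 CPM in IP and 1596, 1773, 1445 and 617 CPM in input (LFC -3.15, SE 0.22, adjusted p = 3.55e-08). Pool 4 was low in both libraries, and each pool lost RNA by a similar factor. mt-Rnr1, the small subunit RNA, had an LFC of -3.09.

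The 4 genes with the lowest LFC, Gm29216 (-7.48), Gm28437 (-7.37), Gm10925 (-7.13) and Gm28661 (-7.08), are nuclear copies of mt-Co1, mt-Co3, mt-Atp6 and mt-Co2 that lie side by side on chromosome 1. The copies share 97.1% to 100% of their 50-base windows with the mitochondrial genes, so reads are split between them in a way that the counts do not resolve, and each value alone is uncertain. This could be seen in the input of pool 3, where the copies gave 2.60 to 6.82 CPM and mt-Co2, mt-Atp6 and mt-Co3 gave 969.8, 1109 and 2298 CPM, against at most 5.14 CPM for these 3 genes in the remaining inputs. The sum of a gene and its copy does not depend on how counted reads were divided between them, but some sums still varied widely. In the control inputs mt-Co3 plus Gm28437 gave 58.3 to 1130 CPM, while mt-Co1 plus Gm29216 gave 1237 to 1742 CPM. The sums with mt-Co2 and mt-Atp6 varied likewise, so the size of the ratio is uncertain for these pairs and for mt-Co3. For mt-Co1 plus Gm29216 the sum was 125, 299, 108 and 199 CPM in DTR IP and 1559, 1635, 2165 and 1474 CPM in DTR input, a mean log2 ratio within pools of -3.32 ± 0.826 (SD, n = 4). The ratio was -3.09 ± 1.44 for mt-Co3 plus Gm28437, -3.08 ± 1.71 for mt-Co2 plus Gm28661 and -2.94 ± 1.45 for mt-Atp6 plus Gm10925. A further pair, mt-Nd4 plus Gm28439, lost less, at -1.78 ± 0.736. The sums were thus lower in IP by amounts from -1.78 to -3.32, and the far lower values of the copies alone are not to be read as a stronger loss. Of the 13 mitochondrially encoded mRNAs taken singly, 2 were lower, mt-Co1 (LFC -2.85) and mt-Cytb (-2.24), and none was higher. Their median LFC was -0.89, and mt-Co2, mt-Co3 and mt-Atp6, whose reads are split with the copies, had values above 0 without passing the test (2.00, 2.64 and 2.84). With mitochondrial genes and these copies left out, an alternative chosen after seeing the data, 86 genes were enriched and 15 depleted.

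Markers of blood, vessels, nerve sheath and hair cells were mostly lower in IP. Of 16 macrophage and leukocyte markers, 16 were lower, with a median LFC of -1.75. Lyz2, the lysozyme of myeloid cells, gave 11.8, 7.37, 10.3 and 13.5 CPM in IP and 64.7, 37.9, 56.6 and 56.7 CPM in input (LFC -2.30, SE 0.12, adjusted p = 2.97e-09). Csf1r, the receptor that macrophages need to survive, gave 13.5, 10.8, 6.92 and 9.70 CPM in IP and 51.3, 37.8, 40.0 and 59.2 CPM in input (LFC -2.19). Both were well apart from input but not absent from IP. The summed macrophage markers gave 79.8 to 130.1 CPM in DTR IP and 306 to 468 CPM in DTR input, against 41.7 to 60.7 CPM and 210 to 225 CPM in control IP and input.

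Of 6 erythroid genes, 5 were lower (median LFC -1.79). Hbb-bs, a beta globin, gave 18.9, 27.3, 50.3 and 30.9 CPM in IP and 105, 153, 185 and 123 CPM in input (LFC -2.21). Globin genes are near-identical copies, so reads may be split among them. Of 18 markers of endothelium and pericytes, 11 were lower and 1 higher, with a median LFC of -1.17. Emcn, a sialomucin of capillaries and veins, gave 102, 103, 99.2 and 114 CPM in IP and 242, 296, 246 and 274 CPM in input (LFC -1.30, SE 0.09, adjusted p = 3.71e-08). Its IP libraries were alike and far below every input. The higher member was Erg (LFC 0.69), an endothelial transcription factor.

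Of 15 markers of Schwann and satellite glia, 12 were lower and none higher, with a median LFC of -1.27. Mbp, a protein of compact myelin, gave 163, 149, 241 and 157 CPM in IP and 458, 392, 653 and 505 CPM in input (LFC -1.43, SE 0.10, adjusted p = 3.39e-08). Pmp22, a membrane protein of peripheral myelin, gave 215, 175, 255 and 193 CPM in IP and 516, 445, 783 and 435 CPM in input (LFC -1.27, SE 0.10, adjusted p = 1.84e-07). Pool 3 was highest in both libraries for both genes, and IP and input did not overlap. The markers of the list summed to 786 to 1049 CPM in DTR IP and 1761 to 2555 CPM in DTR input, against 895 to 1436 CPM in control IP and 3267 to 5506 CPM in control input. Prx, a scaffold protein of myelinating Schwann cells, was depleted (LFC -2.24), as was Cntn1 (-2.27), an adhesion molecule of axons.

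Of 36 hair cell markers, 22 were lower and 2 higher, with a median LFC of -0.93. Otof, which hair cells need to release transmitter, gave 39.6, 23.5, 36.6 and 40.8 CPM in IP and 137, 127, 129 and 218 CPM in input (LFC -2.12, SE 0.16, adjusted p = 8.31e-08). Lhfpl5, a subunit of the mechanotransduction complex, gave 12.2, 8.58, 10.2 and 11.3 CPM in IP and 57.3, 49.8, 52.9 and 51.1 CPM in input (LFC -2.29, SE 0.11, adjusted p = 9.34e-10). Pvalb, a calcium buffer, gave 23.6, 14.03, 17.0 and 8.45 CPM in IP and 90.2, 59.8, 48.2 and 36.3 CPM in input (LFC -1.90). In each of these genes the highest IP library was below the lowest input. Kcna10 (LFC -2.21), a potassium channel, Calb2 (-1.80), a second buffer, and Slc26a5 (-2.65), the motor protein of outer hair cells, fell as well. Atoh1 (1.09), the transcription factor that starts hair cell fate, was 1 of the 2 higher members. The list's sum was 750 to 876 CPM in IP, so hair cell RNA was reduced but not absent, and input held 1472 to 1723 CPM.

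Other tissue lists changed less. Of 9 markers of stria and melanocytes 2 were lower (median LFC -0.53), and of 6 roof epithelium markers none passed a call (-0.31). Of 9 cartilage and bone markers 3 were lower and 1 was higher (-0.36). Of 14 mesenchyme markers 2 were lower, Postn (LFC -1.90) and Col3a1 (-0.85), both matrix proteins. Of 18 neuron markers 1 was higher and none lower, the former being Isl1 (1.72), a transcription factor that the sensory epithelium also makes. By the adjusted p alone, however, 9 neuron markers were below input and 3 above, and the median LFC of the list was -0.37. Atp2a3, a calcium pump of the endoplasmic reticulum, was on none of these lists and gave 8.29, 8.65, 6.79 and 8.78 CPM in IP against 61.7, 64.1, 77.7 and 106 CPM in input (LFC -3.16, SE 0.16, adjusted p = 2.40e-09). It was the coding gene of the nucleus with the lowest LFC. Among the depleted coding genes Fcrlb (-2.58), an Fc receptor-like gene, came next.

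**Figure D4:**
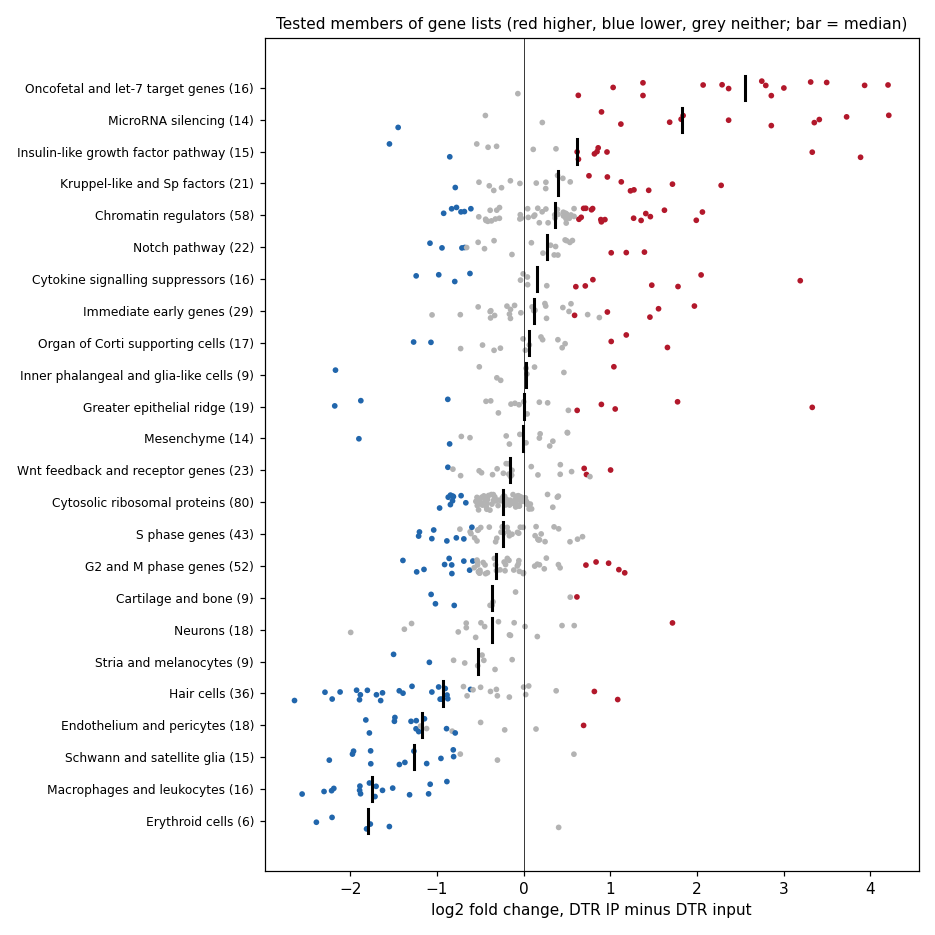
LFC of DTR IP against DTR input (x, log2 scale) for the tested members of 24 gene lists (y), sorted by median. Red points are higher, blue points lower, grey points passed neither call and black bars are medians; oncofetal genes (2.56) and microRNA silencing (1.83) are at the top, and macrophage (-1.75) and erythroid markers (-1.79) at the bottom.

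Markers of the GER, where GLAST-CreERT is known to act in the neonatal cochlea, did not move as a group. Of 19 tested, 5 were higher and 3 lower, with a median LFC of 0.00. The higher ones were Igf2, Dlx5 (LFC 1.78), a homeobox factor, Otog (1.06), a tectorial membrane protein, Crabp1 (0.90), a retinoic acid carrier, and Igfbp3. The lower ones were Ednrb (-2.18), an endothelin receptor that melanocytes and glia also make, Otoa (-1.88), which attaches the tectorial membrane, and Otogl (-0.88). The GER markers together summed to 23204 to 26409 CPM in IP and 15537 to 21607 CPM in input, without overlap. Igf2 alone averaged 4915 CPM in IP and 425 CPM in input, and without it the sums of IP and input would overlap. The gap between the sums is therefore not a trait of the list as a whole. Tectb, a tectorin of the tectorial membrane, gave 8293, 10054, 8264 and 10543 CPM in IP and 4892, 6840.3, 8514 and 7330.3 CPM in input. IP was higher in pools 1, 2 and 4 and lower in pool 3, and the LFC of 0.04 (SE 0.17, adjusted p = 0.868) passed no call. Epyc, a small proteoglycan of the same cells, gave 4000.0, 4806, 4098 and 3655 CPM in IP and 2751, 3073, 4330.2 and 2581 CPM in input (LFC 0.00, SE 0.15, adjusted p = 0.996). Pool 3 was again the one in which the input was higher. Without quantile normalization, which sets the highest ranks of all libraries to common values, the LFC was 0.45 for Tectb (limma, adjusted p = 0.0434) and 0.40 for Epyc (adjusted p = 0.0378), with values of 0.44 and 0.40 by edgeR (adjusted p = 0.00823 and 0.0192), so the level of these abundant messages relative to input depended on the scaling.

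Of 9 markers of inner phalangeal and glia-like cells, 1 was higher and 1 lower, with a median LFC of 0.03. The lower one was called depleted and had an LFC of -2.17, further from 0 than the higher one, S100b. S100b, a calcium-binding protein of glia and of the cells around inner hair cells, gave 652, 669, 1206 and 969 CPM in IP and 433, 433, 529 and 445 CPM in input. Every IP library was above every input, most of all in pools 3 and 4 (LFC 1.04, SE 0.12, adjusted p = 7.37e-06). Of 17 markers of the organ of Corti supporting cells, which the toxin removes in part, 3 were higher and 2 lower (median LFC 0.07). The higher ones were Cdkn1b (1.66), the cell cycle inhibitor p27Kip1, Lfng (1.18), a modifier of Notch, and Hey2 (1.01), a Notch effector of pillar cells. The lower ones were Npy (-1.27), a neuropeptide, and Ngfr (-1.07), the p75 neurotrophin receptor. Their sum was 712 to 938 CPM in DTR IP and 695 to 876 CPM in DTR input, against 2208 to 2358 CPM and 1759 to 2095 CPM in control IP and input, so both fractions of the damaged cochleae held less of this RNA.

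Cell division genes were on the whole a little lower in IP. Of 43 S phase genes, 8 were lower and none higher (median LFC -0.24). Of 52 G2 and M phase genes, 10 were lower and 5 higher (median -0.32). The 5 were Mki67 (LFC 1.17), which coats mitotic chromosomes, Cbx5 (1.10), a heterochromatin protein, Cenpf (0.98), a kinetochore protein, Hmmr (0.84), which acts on the spindle, and Hmgb2 (0.72), a chromatin protein. Of 22 Notch pathway genes, 3 were higher, the ligand Dll1 (1.39), Lfng and Hey2, and 4 were lower, Notch1 (-1.08), Notch3, Notch4 and Rbpj, the DNA-binding partner of the receptors. Of 23 Wnt feedback and receptor genes, 3 were higher, Tcf7l2 (1.00) and Tcf7, which carry the signal in the nucleus, and Znrf3, which removes receptors, and Lgr6 (-0.87), a paralog of Lgr5, was lower. Of 21 genes of actin motors and migration, 5 were lower and none higher, with Vcl (-1.92), a protein of focal adhesions, the lowest.

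Messages for proteins of high abundance in every cell were close to input or slightly below it. Of 80 cytosolic ribosomal protein genes, 9 were lower and none higher (median LFC -0.23), and of 78 nuclear genes of oxidative phosphorylation 1 was lower (median -0.09). Of 34 replication-dependent histone genes 3 were lower. The list of 19 genes that the study names for IP against input was chosen by the study on these samples and is not independent evidence of a direction. In it 9 genes were higher and 4 lower.

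Several noncoding classes, but not all, were above input more often than the 11.6% of all tested genes, although a ribosome IP is aimed at translated RNA. Of 383 long intergenic noncoding RNAs, 71 (18.5%) were higher and 15 (3.92%) lower, and of 246 processed transcripts 43 (17.5%) were higher and 3 (1.22%) lower. Processed pseudogenes, the largest noncoding class, went the other way: of 804, 27 (3.36%) were higher and 45 (5.60%) lower, with a median LFC of -0.12. Of 56 noncoding RNAs from bidirectional promoters, 5 (8.93%) were higher and 0 lower. All 8 calls among 13 small nucleolar RNAs were higher. Of 393 antisense genes 58 were higher and 10 lower, but reads of an antisense gene and of its partner cannot be told apart without strand. By comparison, 1660 of 14489 protein-coding genes (11.5%) were higher and 1661 (11.5%) lower. Of 12 nuclear long noncoding RNAs on the list, Kcnq1ot1 (LFC 1.79), Mirg (1.26) and Malat1 (1.04) were higher, and Pvt1 (-0.74) and Tug1 (-0.71) lower. Malat1 is known as an RNA that stays in the nucleus. Of 13 host genes of small nucleolar RNAs, 4 were higher and 1 lower.

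The same comparison in the control pools, which share no sample with the DTR pools, gave the undamaged background. There 91 genes were enriched and 42 depleted by the same rule, and 75 and 18 of these were also called in the DTR pools, which is 87.2% of the DTR and 82.4% of the control enriched genes, and 81.8% and 42.9% of the depleted genes. All 86 DTR enriched genes had an LFC above 1 and all 22 depleted genes one under -1 in the control pools. Over the 16994 genes, the LFC of both comparisons had a Pearson's r of 0.90, given as a description across genes. In control pools the median LFC was 1.66 for microRNA silencing, 2.85 for oncofetal genes, 0.68 for the IGF pathway, -1.71 for macrophages and -1.17 for hair cells, each on the same side of 0 as in the DTR pools. Since the lists were chosen with earlier results of these data known, these medians are descriptions. The median for Schwann and satellite glia was -1.84, further from 0 than the -1.27 of the DTR pools. For Tnrc6a the control LFC was 4.12, for Ago2 3.42 and for Igf2 3.49.

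A test of the difference between the LFC of DTR and control pools found 40 genes (0.235%) at an adjusted p under 0.05, 15 with a larger and 25 with a smaller LFC in the DTR pools, and 1533 genes at an unadjusted p under 0.05. None of the 86 enriched genes was among the 40. Dusp8, a phosphatase that inactivates the JNK and p38 kinases, gave 364, 359, 251 and 259 CPM in DTR IP and 271, 249.7, 161 and 220.4 CPM in DTR input. In control pools it gave 101, 91.2, 45.9 and 41.6 CPM in IP and 25.8, 26.1, 11.5 and 11.8 CPM in input. Its level was thus higher in both fractions of the damaged cochleae, more so in input, and the LFC was 0.54 there against 1.86 in controls (difference -1.32, SE 0.13, adjusted p = 5.26e-04). Tmprss3, a serine protease mutated in hereditary deafness, gave 41.3, 28.8, 30.8 and 36.1 CPM in DTR IP and 82.8, 64.0, 72.0 and 92.4 CPM in DTR input (LFC -1.20 against -0.27 in controls, difference -0.94, SE 0.13, adjusted p = 0.00982). Egr1 (LFC -1.06 against -0.12, difference -0.93, SE 0.14, adjusted p = 0.0228) was at 42.2 to 58.4 CPM in control IP and 45.8 to 75.7 CPM in control input, far below its level in the DTR pools.

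Smaller LFCs in DTR pools were also found for Rorb, an orphan nuclear receptor (-0.80 against 0.38, difference -1.17, adjusted p = 0.0228), and Slc25a25, a mitochondrial carrier (0.13 against 1.00, difference -0.87, adjusted p = 0.0228). Snhg15, a small nucleolar RNA host gene, had -0.60 against 0.70 (difference -1.30, adjusted p = 0.0422) and Gm34653 -1.39 against 0.34 (difference -1.73, adjusted p = 0.00982). Trh, the precursor of thyrotropin-releasing hormone, was at 0.0609 to 0.214 CPM in the DTR libraries, at or near the level of 3 reads, against 43.3 to 71.1 CPM in control IP and 11.8 to 17.9 CPM in control input. Its fitted difference (-1.86, SE 0.20, adjusted p = 0.00118) compares a change in the controls with values too low to show one in the DTR pools. Among genes with a larger LFC, Pmp22 lost less in the DTR pools (-1.27 against -2.07, difference 0.80, SE 0.15, adjusted p = 0.0399). Prx (-2.24 against -3.15), Top2a (-0.51 against -1.64), the topoisomerase of dividing cells, and Ccnb2 (-0.32 against -1.41), a mitotic cyclin, had the same direction, and these 3 were picked after their values were seen. Beside these values stand the summed Schwann cell markers, which were lower in DTR than in control input (1761 to 2555 against 3267 to 5506 CPM), and the summed macrophage markers, which were higher (306 to 468 against 210 to 225 CPM), and their part in the differences was not tested. The count of 40 rests on pairing within pools and on single pools: without the pool as a block it was 2, and with 1 DTR pool left out it was 10 to 14. With each of the 8 pools left out in turn, Dusp8, Gm34653 and Trh were called each time and 10 of the 40 genes never. The call of Tmprss3 ended without control pool 1 (adjusted p = 0.0585), that of Rorb without DTR pool 3 or control pool 3 (up to 0.0740), that of Slc25a25 without DTR pool 1 or control pool 1 (up to 0.104), and that of Egr1 without DTR pool 1, 3 or 4 (up to 0.0732). Pmp22, Prx and Snhg15 were each called in only 1 of the 8 runs (limma, adjusted p up to 0.164, 0.126 and 0.162), and Top2a and Ccnb2 in 3.

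**Figure D5:**
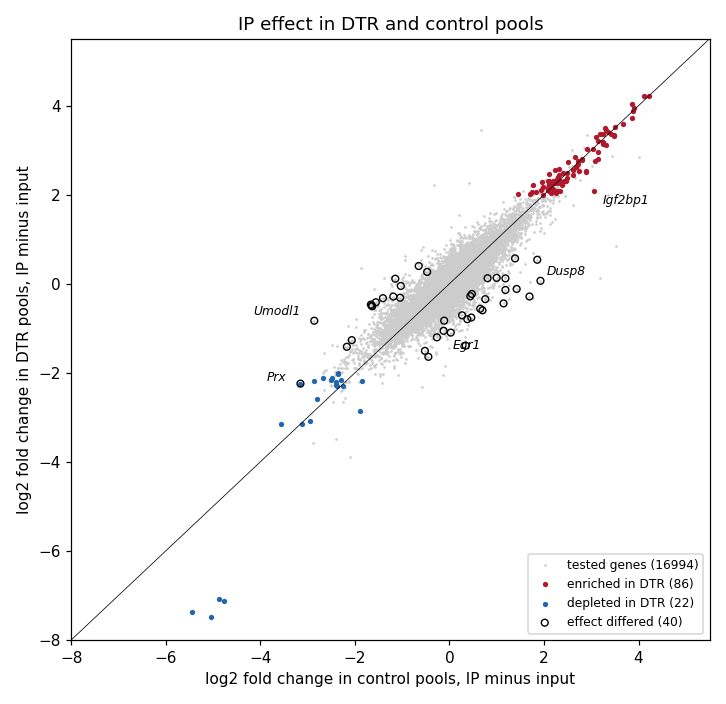
LFC of IP against input in control pools (x) and DTR pools (y), both on the log2 scale, for the 16994 tested genes, with a line at equal values. Red points are the 86 genes enriched and blue points the 22 depleted in DTR IP, and circles the 40 genes whose LFC differed, among them Dusp8 (0.54 in DTR and 1.86 in control pools) below the line and Prx (-2.24 and -3.15) above it.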

How the data were processed

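The values that the authors deposited are CPM for each gene, scaled to the reads counted on genes in a library. The labels name TopHat and GRCm38, and the study's text names HISAT2 and HTSeq. The annotation release and strand setting were not given in the sources used here. All CPM above 0 were whole multiples of 1 read (tolerance 0.05), so counts were recovered. Of 50316 genes listed, 2587 held no value.

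CPM were quantile normalized over 16 libraries and log2 transformed (pseudocount 0.5). The 16994 genes that reached 0.5 CPM in all 4 libraries of any group were fitted in R (version 4.3.3) by limma (version 3.58.1), with a trend and the pool as block (residual df 6). Each IP came from its input's homogenate, and deviations of paired DTR libraries correlated at r = 0.312 to 0.491. Alternatives included edgeR (version 4.0.16) and DESeq2 (version 1.42.0) on recovered counts. The procedures were tested on simulated data. Intervals and floors cover counting error only.

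Named genes were the 12 most enriched and 12 most depleted, up to 4 members of each list with the highest CPM, genes the study names, Slc1a3, Lgr5, Rpl22 and the 6 clearest differences. Other list members were chosen after their values were seen. Members and lists were chosen with earlier results of these data known. A few genes under this rule are left unnamed. Positions are from GENCODE M21 (GRCm38).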

Additional observations from a re-analysis of the deposited data

Results flagged for a closer look

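In 82 groups of 4 DTR libraries of named genes and sums, 7 had 1 library far from the other 3 by Dixon's criterion, and chance alone gives about 1 group in 20. Pool 4 stood apart in the input for Tnrc6b (65.1 CPM, others 52.9 to 54.7) and Otof (218 CPM, others 127 to 137). Pool 3 stood apart in the IP for Mbp (241 CPM, others 149 to 163) and in the input for S100b (529 CPM, others 433 to 445). The input of pool 3 also stood apart for mt-Co2 (969.8 CPM, others 1.52 to 4.76), mt-Co3 (2298 CPM, others 1.64 to 5.14) and mt-Atp6 (1109 CPM, others 0.761 to 3.30), genes that share reads with nuclear copies.

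The LFC of IP against input differed between DTR and control pools for 40 genes by the limma test of the difference. Among those named, the difference was -1.86 for Trh, -1.73 for Gm34653, -1.32 for Dusp8, -1.30 for Snhg15, -1.17 for Rorb, -0.94 for Tmprss3, -0.93 for Egr1, -0.87 for Slc25a25 and 0.80 for Pmp22, DTR minus control on the log2 scale.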

How the results depend on the processing

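Enriched, higher and lower counts stayed within 1.5 times of 86, 1968 and 1755 under every alternative. Leaving out 1 DTR pool gave 79 to 95 enriched, 23 to 27 depleted, 1996 to 2236 higher and 1801 to 2134 lower. The depleted count of 22 became 44 with no filter on low values and 42 without the expression minimum. The count of genes that differ between DTR and control pools was the least stable. Without the replicate block (the pool) it was 2 in place of 40, with no filter 1, with a length and GC trend removed 71 and by DESeq2 192. It was 10 to 14 without 1 DTR pool, 6 to 32 without 1 control pool, 32 by edgeR and 28 without quantile normalization. Leaving out control pools 1, 2 and 3 gave 6, 22 and 8, and leaving out DTR pools 1 to 4 gave 10, 14, 12 and 14. The cause was not tested. The block changed no other count by over 1.5 times (86 enriched, 22 depleted, 1956 higher and 1747 lower without it). Over 170 named genes and 21 settings, 3058 values were compared: none reversed, 115 fell short of the threshold, 35 newly passed it and 2908 kept their side. Tectb and Epyc passed by DESeq2 and edgeR. Medians close to 0 gave no direction, and that of the glia-like list changed sign with the scaling. The GER median changed sign with the length and GC trend removed (-0.04). The mesenchyme median did so with at least 2 CPM required and with the filter set on a DTR group (0.03 each). Both also changed sign with a pool left out. At 3 reads, or 0.07149 to 0.1068 CPM, values near 0 such as Trh in DTR pools carry no fold. With 4 pools a group, all p-values rest on the spread between few pools. In the main fit that spread was shared by DTR and control pools, with a trend across genes. Control mice differ from DTR mice in genotype, so the DTR allele and the cell loss it allows cannot be told apart. By the study's methods both genotypes received the toxin, but by the labels the controls had no treatment, and then the toxin would differ as well.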

Other observations

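Igf2 and H19 are imprinted, which led to a look at other imprinted genes, a list written after these values were seen and described here without a test. Of 28 tested imprinted genes, 8 were higher in DTR IP and 1 was lower, with a median LFC of 0.22 (0.32 in the control pools), beside 11.6% higher and 10.3% lower over all genes. The higher ones were H19 (LFC 3.89), Mkrn3 (3.45), Igf2 (3.33), Zim1 (2.04), a zinc finger gene, Kcnq1ot1 (1.79) and Mirg (1.26), both noncoding, Blcap (1.56) and Igf2r (0.85), the receptor that clears IGF2. Mest, a hydrolase expressed from the paternal copy, was lower (-0.87). The remaining 19 passed neither call.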
